A study of Homo sapiens with 24 samples.

Results

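The 10 genes described here are MYOCD, its DNA-binding partner SRF, and 8 smooth muscle genes that the pair is known to activate: ACTA2, ACTG2, TAGLN, CNN1, CNN2, MYL9, MYH11 and LMOD1. They were taken by symbol from both deposited tables, which together hold 62242 symbols, and all 10 were found in both. The set was chosen by the MYOCD counts of batch 2, which had been seen to be high in 1 group of libraries, full-length SLNCR. The level of MYOCD there is therefore given as a description with no test, and the question is whether the other 9 genes differed in the same libraries.

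The cells were A375, an established human melanoma line, transfected with a pcDNA3.1 plasmid that holds a CAG promoter, and selected for 48 h with puromycin at 2 µg/mL. The plasmid carried no insert (empty vector), the full-length long noncoding RNA SLNCR (FL), or SLNCR lacking 1 of its triplex-forming regions (ΔTFR), stretches of RNA thought to pair with double-stranded DNA. Batch 1 held empty vector, FL, ΔTFR1 and ΔTFR2, and batch 2 held its own empty vector and FL with ΔTFR4 and ΔTFR5. Each had 3 libraries that the design text calls biological replicates. Some samples were re-used from an earlier series, and the design text does not say which. Cells of every group were transfected and selected, so no untransfected cells enter a comparison. The labels do not say how many of the cells still carried the plasmid at harvest. In each batch all comparisons with FL share the same 3 FL libraries and all comparisons with empty vector the same 3 empty vector libraries, so their values are set side by side and are not independent.

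Myocardin, the product of MYOCD, is a transcriptional coactivator of smooth muscle and heart that does not bind DNA itself. It docks on SRF, a widely expressed transcription factor that binds the CArG box, and turns on genes of the contractile apparatus. Other cofactors share SRF: the myocardin-related factors MRTFA and MRTFB, which respond to the actin cytoskeleton, and the ternary complex factors of the ELK family, which respond to growth signals and drive immediate early genes. A melanoma cell has SRF but is not a cell type in which myocardin is known to act.

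The CArG box, an A/T-rich run of 6 bases between CC and GG, is the sequence through which myocardin reaches its targets, so the stretches upstream of the members that hold it are shown first. RefSeq promoter sequences (GRCh38.p14) were at hand for 6 of the 10 members: SRF, ACTA2, ACTG2, CNN1, CNN2 and LMOD1. MYOCD, TAGLN, MYL9 and MYH11 were not matched. Within 250 bases upstream of a start, on both strands since the box reads alike on each, 407 of 35116 RefSeq promoters (1.16%) hold an exact box, and 5885 (16.8%) hold one with at most 1 mismatch. Among the 6 members, SRF and ACTG2 hold 2 exact boxes, which 11 promoters of all (0.0313%) do, and CNN2 holds 1. ACTA2 at its downstream start and LMOD1 each hold 2 boxes with 1 mismatch, and CNN1 holds neither form in this window. The 130 bases before the start are printed 5′ to 3′ for 4 of them, with the boxes in capitals; for ACTA2 the capitals mark the pair with 1 mismatch.
SRF promoter (chr6:43171139-43171268, + strand): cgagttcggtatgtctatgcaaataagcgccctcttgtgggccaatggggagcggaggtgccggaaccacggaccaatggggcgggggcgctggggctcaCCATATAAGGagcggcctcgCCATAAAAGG
ACTG2 promoter (chr2:73892878-73893007, + strand): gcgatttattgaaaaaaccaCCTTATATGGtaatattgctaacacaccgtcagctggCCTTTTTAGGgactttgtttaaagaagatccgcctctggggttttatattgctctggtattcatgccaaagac
CNN2 promoter (chr19:1026478-1026607, + strand): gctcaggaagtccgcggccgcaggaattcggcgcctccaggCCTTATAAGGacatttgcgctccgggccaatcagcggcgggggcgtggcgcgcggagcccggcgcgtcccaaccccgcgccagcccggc
ACTA2 promoter (chr10:88952774-88952903, − strand): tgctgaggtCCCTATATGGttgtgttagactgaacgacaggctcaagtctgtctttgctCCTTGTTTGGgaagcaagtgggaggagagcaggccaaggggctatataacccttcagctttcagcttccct
In SRF the boxes end 21 bases and 1 base before the start, so the gene carries the motif of its own product. In ACTG2 they cover bases 110 to 101 and 73 to 64 before the start, in CNN2 bases 89 to 80, and in ACTA2 bases 121 to 112 and 71 to 62. A match describes letters only and is not a measured binding site.

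Levels are given as CPM, counts scaled by the TMM-adjusted size of each library. Libraries held 8627449 to 10789211 counts in batch 1 and 24810226 to 33063445 in batch 2. SLNCR was higher wherever it was transfected. In batch 1 its row, LINC00673, stood at 20.1 ± 1.04 CPM (SD, n = 3) without an insert, at 208 ± 38.8 with the full-length RNA, at 198 ± 7.13 with ΔTFR1 and at 195 ± 10.1 with ΔTFR2. In batch 2 its locus is the row LINC00511, whose GENCODE 29 interval encloses the RefSeq SLNCR gene. That row read 27.89 to 30.13 CPM with empty vector, 334.12 to 728.12 with FL, 443.91 to 515.09 with ΔTFR4 and 191.6 to 375.67 with ΔTFR5. The 3 FL libraries of batch 2 stood apart from each other more than other replicates did: chi-square per gene between them was 59.7 to 192, against 7.64 to 37.3 in the other groups of that batch. The label calls the cells epithelial. Of 7 epithelial markers 2 averaged at least 1 CPM in batch 1, KRT18 (343 CPM) and KRT8 (160), and 6 did in batch 2, with KRT18 at 436 and KRT8 at 113. EPCAM averaged 0.246 and 0.152 CPM. Of 14 melanoma and neural crest markers 9 averaged at least 1 CPM in each batch, AXL the highest and MITF at 87.0 and 88.2, while the pigment genes TYR, DCT and PMEL and S100B were under 1.

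MYOCD lies at chr17:12665890-12768949 on the + strand (GRCh38, GENCODE 29). In batch 2 it read 162, 106 and 63 counts in the FL libraries. It read 2, 1 and 1 with empty vector, 2, 0 and 0 with ΔTFR4 and 2, 1 and 1 with ΔTFR5. The FL libraries thus held 331.2 counts and the other 9 together 10, and no library outside FL exceeded 2. A count of 0 allows up to 3 counts by counting error alone. On the CPM scale FL stood at 4.87, 3.91 and 1.97, a mean of 3.58 ± 1.48 (SD, n = 3), against 0.0451 ± 0.0149 with empty vector.

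In batch 1 MYOCD was counted in all 12 libraries and showed no such split. It read 2, 5 and 6 counts with empty vector, 4, 7 and 5 with FL, 7, 3 and 6 with ΔTFR1, and 5, 3 and 7 with ΔTFR2. All 4 groups overlapped, at 0.19 to 0.80 CPM, too low for the test. The same full-length construct by label thus went with MYOCD above empty vector in 1 batch and not in the other. The plot of MYOCD counts shows both batches.

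**Figure D1:**
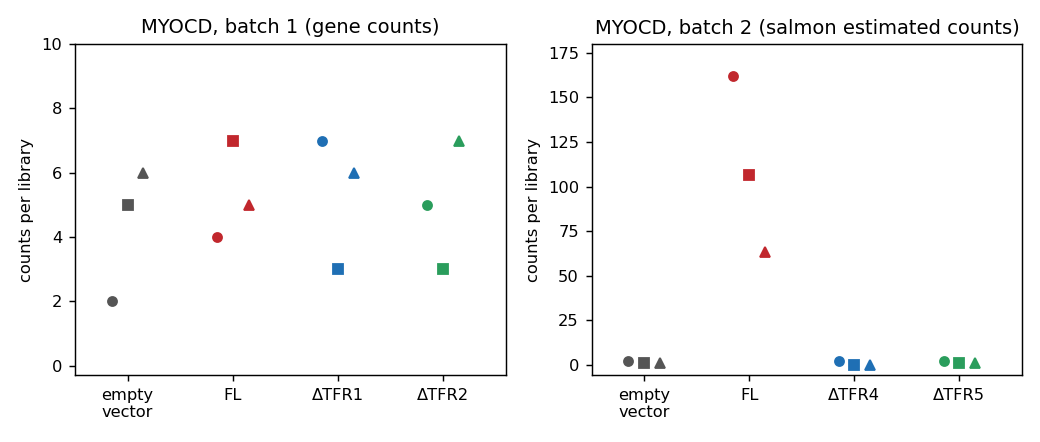
MYOCD counts per library in batch 1 (left, gene counts) and batch 2 (right, salmon estimated counts), by group; each point is 1 library and its shape the replicate number (circle 1, square 2, triangle 3). The y axes differ: all batch 1 libraries lie between 2 and 7 counts, and in batch 2 the FL libraries read 63 to 162 where no other library exceeds 2.

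By group mean the SLNCR row was highest with FL (574 ± 210 CPM), next ΔTFR4 (486 ± 37.1) and ΔTFR5 (296 ± 94.5). The library highest in that row, FL replicate 1, also had the most MYOCD. Single libraries did not keep that order. FL replicate 3 had a level of 334.12 CPM in the SLNCR row, LINC00511, and 63 MYOCD counts. All 3 ΔTFR4 libraries stood higher in that row, at 443.91 CPM or more, and had at most 2 MYOCD counts. The row covers a wider interval than SLNCR, so it may count other transcripts beside the transfected RNA. Over the 12 libraries of batch 2 the Pearson correlation of log2 CPM between the SLNCR row and MYOCD was 0.42, a description in which group membership is shared by the points.

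The neighbours of MYOCD on chromosome 17 were looked at in the same libraries. LINC00670, a long noncoding RNA that ends 23036 bases upstream on the same strand, read 14, 17.7 and 8 counts in FL of batch 2 and 0 to 5 in the other 9 libraries, 21.1 counts in all. In batch 1 it read 0 to 3 counts. ARHGAP44, a protein-coding gene that begins 20590 bases downstream, read 503, 479 and 709 counts in FL and 370 to 565 elsewhere in batch 2. Its log2 fold change for FL against empty vector was 0.03 ± 0.15 (edgeR adjusted p = 0.907). AC005358.2, an antisense gene that shares 7.9% of the exonic bases of MYOCD, read at most 1.07 counts in an FL library and up to 7 elsewhere, so it was not higher in the FL libraries. The strand setting of the counting is not given in the sources used here.

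Genes with the profile most like that of MYOCD were looked for. By Pearson correlation of log2 CPM over the 12 libraries of batch 2, among 18763 genes, the 5 closest were USHBP1 (0.944), ZNF267 (0.943), Z68323.1 (0.941), SLPI (0.924), a secreted protease inhibitor, and PIM1 (0.913), a kinase. No member is among them, but 5 of 18763 genes are too few for this to bear on the members. With a threshold of at least 10 counts in each FL library and a mean under 1 in the other 9, 1 gene qualified, Z68323.1, with 20, 11 and 29 counts in FL and 4 counts over the other 9. MYOCD itself falls just outside, at a mean of 1.11 counts in those 9.

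No target passed the test in the libraries with MYOCD. In FL against empty vector of batch 2, edgeR's quasi-likelihood test called none of the 7 members it tested other than MYOCD, where 1.16% of all 18763 genes were called (1.03% higher, 0.128% lower). At an unadjusted p under 0.05 there were 3 (LMOD1, MYH11 and CNN2, the last with lower values), beside 4933 of all 18763 genes. DESeq2 also called none of the 6 it gave an adjusted p, where it called 11.0% of all genes. The 7 log2 fold changes ran from -0.46 to 1.49 with a median of 0.32, against 0.02 over all genes. CNN1 and ACTG2 were below the filter on low counts. MYOCD passed that filter through the FL libraries alone. LMOD1 also had to pass it through libraries with SLNCR, since none with empty vector held more than 5 counts.

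SRF, myocardin's partner (chr6:43171299-43181507, + strand), was well counted in every library. It read 62.66, 60.93 and 68.64 CPM with empty vector, 57.97, 69.52 and 65.22 with FL, 69.68, 70.52 and 67.41 with ΔTFR4, and 68.91, 70.02 and 53.24 with ΔTFR5. The 4 groups overlapped throughout. The log2 fold change of FL against empty vector was 0.00 ± 0.13 (edgeR adjusted p = 0.988).

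MYH11, the smooth muscle myosin heavy chain (chr16:15703172-15857033, − strand), was uneven within FL. It read 1.46, 1.38 and 1.21 CPM with empty vector and 4.45, 1.22 and 2.69 with FL. The first FL library, which had the most MYOCD, was the highest and the third was intermediate. The second, with 106 MYOCD counts, lay at the level of empty vector. The log2 fold change was 1.05 ± 0.39 (edgeR adjusted p = 0.121), and 0.54 without FL replicate 1 (edgeR adjusted p = 0.422). MYH11 read 1.24, 1.47 and 1.52 CPM with ΔTFR4 and 2.66, 1.5 and 2.07 with ΔTFR5, a range that the FL libraries overlapped.

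ACTG2, the gamma actin of enteric smooth muscle (chr2:73892314-73919865, + strand), had 30 counts in FL replicate 1 and 4 and 2 in the other FL libraries. With empty vector it read 3, 0 and 1 counts, with ΔTFR4 4, 1 and 0, and with ΔTFR5 1, 5 and 1. A single library thus held 30 of the 36 counts of its group. CNN1, calponin 1 of differentiated smooth muscle (chr19:11538717-11550323, + strand), read 10, 21 and 4 counts with empty vector, 19, 5 and 11 with FL, 0, 3 and 5 with ΔTFR4, and 5, 9 and 8 with ΔTFR5. Its FL and empty vector libraries overlapped.

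TAGLN (chr11:117199321-117204782, + strand) encodes transgelin (SM22α), an actin-binding protein often used as a readout of myocardin activity. It read 1.21, 2.19 and 1.66 CPM with empty vector and 1.59, 0.96 and 1.84 with FL, with a log2 fold change of -0.20 ± 0.30 (edgeR adjusted p = 0.693). The deletions lay in the same range, at 1.5 to 2.04 CPM.

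CNN2, a calponin expressed well beyond smooth muscle (chr19:1026581-1039068, + strand), read 122.64, 124.85 and 131.45 CPM with empty vector and 58.18, 94.91 and 122.17 with FL. Every FL library was below every empty vector library, yet the first FL library was far below the third, and the log2 fold change of -0.46 ± 0.20 did not pass (edgeR adjusted p = 0.169). Without FL replicate 3 it was -0.73 (edgeR adjusted p = 0.00726), in a fit that called 30.7% of all genes. CNN2 read 93.28, 91.97 and 101.31 CPM with ΔTFR4 and 124.49, 123.57 and 100.11 with ΔTFR5. All ΔTFR4 libraries were below empty vector, at a log2 fold change of -0.40 ± 0.20 (edgeR adjusted p = 0.164). With the GC trend of each library removed that difference passed, at -0.39 ± 0.13 (edgeR adjusted p = 0.0311), in a fit that called 32.1% of all genes.

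Across the 12 batch 2 libraries the correlation of each tested member's log2 CPM with that of MYOCD was 0.52 for MYH11, 0.10 for LMOD1, -0.15 for SRF, -0.22 for MYL9, -0.35 for ACTA2, -0.45 for TAGLN and -0.52 for CNN2. These are descriptions over libraries of 4 groups. MYOCD read 0 to 2 counts in the 9 libraries outside FL, so each value mostly sets FL against the other groups.

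**Figure D2:**
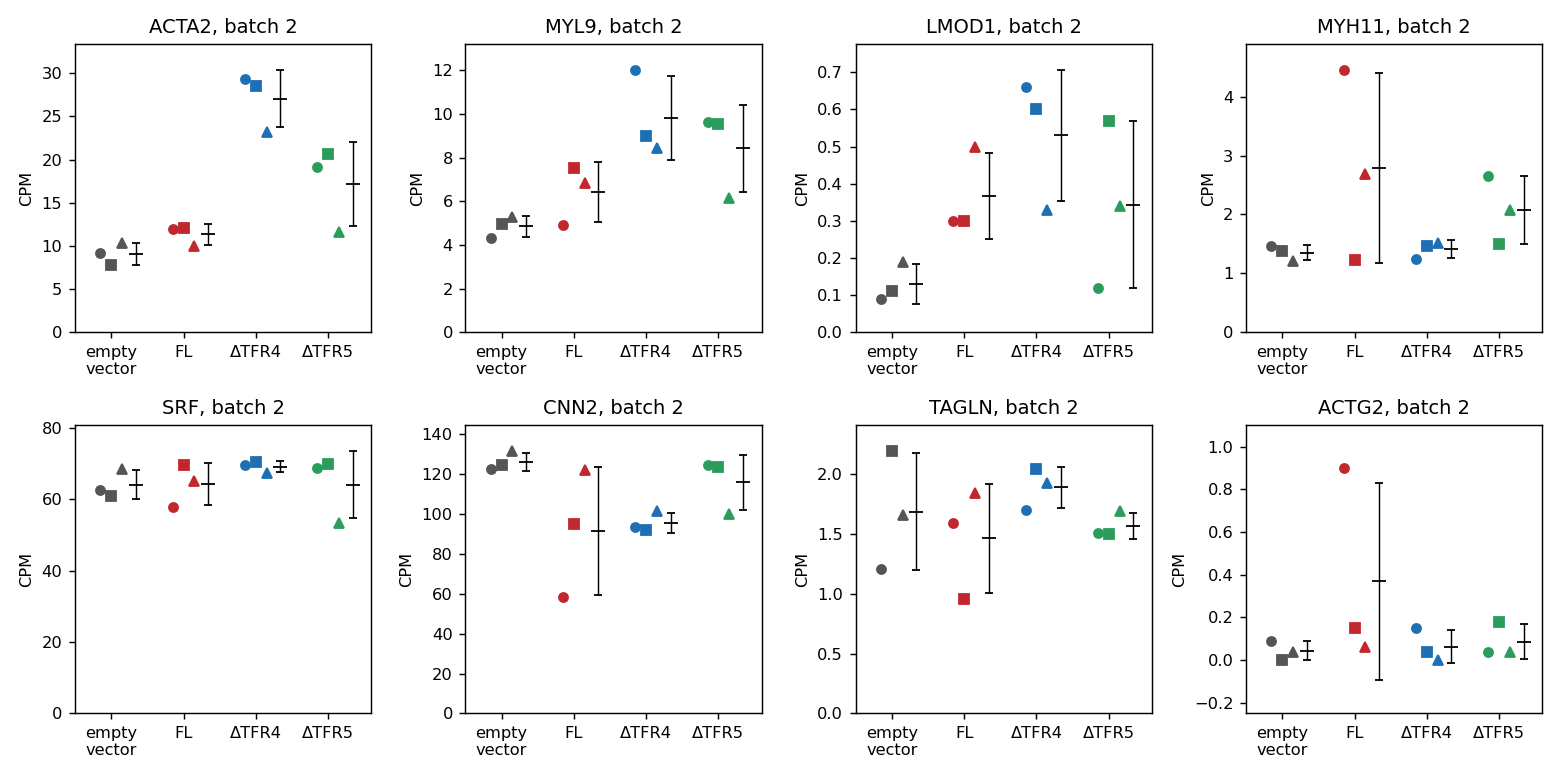
Level of 8 members in each batch 2 library, in CPM on a linear axis, by group; points are libraries (shape as replicate number), and the bar beside them is the mean ± SD of 3. ACTA2 and MYL9 sit highest with ΔTFR4, MYH11 and ACTG2 are high in FL replicate 1, and SRF and TAGLN overlap across the groups.

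In batch 2 the targets that passed did so in the deletion constructs, where MYOCD read 0 to 2 counts. Against empty vector, 23.9% of all genes were called with ΔTFR4 and 10.2% with ΔTFR5, beside 1.16% with FL. ACTA2, smooth muscle alpha actin (chr10:88935074-88991339, − strand), read 9.12, 7.79 and 10.29 CPM with empty vector, 12.01, 12.10 and 9.93 with FL, 29.36, 28.52 and 23.24 with ΔTFR4, and 19.17, 20.63 and 11.56 with ΔTFR5. FL overlapped empty vector, all ΔTFR4 libraries were above all others, and ΔTFR5 lay between, with replicate 3 within the range of FL. MYL9, a regulatory light chain of smooth muscle and nonmuscle myosin (chr20:36541484-36551447, + strand), followed the same order: 4.33, 4.94 and 5.30 CPM with empty vector, 4.90, 7.53 and 6.84 with FL, 12.01, 8.99 and 8.44 with ΔTFR4, and 9.62, 9.55 and 6.14 with ΔTFR5. The FL libraries of MYL9 overlapped empty vector and ΔTFR5 but not ΔTFR4.

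In ΔTFR4 against empty vector 3 of the 7 tested members were called higher and none lower, where 23.9% of all genes were called with 12.5% higher and 11.4% lower. With no filter on low counts 2 of the 3 (ACTA2 and MYL9) were called, where 9.3% of all genes were. ACTA2 rose by 1.58 ± 0.21 on the log2 scale, 2.98-fold (edgeR adjusted p = 0.000689). MYL9 rose by 1.02 ± 0.23, 2.02-fold (edgeR adjusted p = 0.00734). Both calls held with each of the 6 libraries left out in turn. LMOD1, leiomodin 1 (chr1:201896452-201946588, − strand), which nucleates actin filaments in smooth muscle, read 3, 3 and 5 counts with empty vector and 17, 16 and 9 with ΔTFR4, a log2 fold change of 2.02 ± 0.61 (edgeR adjusted p = 0.0307). It entered the test only through the groups where it is high, and with no filter its adjusted p was 0.0598. The call was also lost in 5 of the 6 fits with 1 library left out, at adjusted p of 0.0574 to 0.115, all but the fit without ΔTFR4 replicate 3. In the other groups LMOD1 read 10.4, 8 and 16 counts with FL and 3, 16 and 9 with ΔTFR5.

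In ΔTFR5 against empty vector 2 of the 7 rose, where 10.2% of all genes were called with 5.48% higher and 4.68% lower. ACTA2 rose by 0.92 ± 0.21 (edgeR adjusted p = 0.0166) and MYL9 by 0.80 ± 0.23 (edgeR adjusted p = 0.0425). These calls were not stable to single libraries: ACTA2 kept its call in 2 of 6 such fits (without empty vector replicate 3 or ΔTFR5 replicate 3) and MYL9 in 1 (without ΔTFR5 replicate 3). In the others the adjusted p reached 0.0909 for ACTA2 and 0.172 for MYL9. LMOD1 differed by 1.40 ± 0.63 (edgeR adjusted p = 0.175).

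Against FL, ΔTFR4 called 1 of the 7, where 4.36% of all genes were called (1.9% higher, 2.47% lower). ACTA2 rose by 1.25 ± 0.21, 2.38-fold (edgeR adjusted p = 0.00805). Without ΔTFR4 replicate 2 its adjusted p was 0.0521, at 1.22. MYOCD read 63 to 162 counts in FL and 0 to 2 in ΔTFR4, and its part in the ACTA2 difference was not tested. MYL9 differed by 0.61 ± 0.22 (edgeR adjusted p = 0.129) with groups that did not overlap. Of the 7, MYH11 alone had a negative log2 fold change, at -0.98 ± 0.39 (edgeR adjusted p = 0.15). It passed at -1.33 without FL replicate 2 (edgeR adjusted p = 0.0252), in a fit that called 8.11% of all genes.

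ΔTFR5 against FL called none of the 7, where 1.38% of all genes were called (0.826% higher, 0.554% lower). At an unadjusted p under 0.05 there was 1, ACTA2, at 0.59 ± 0.21 (edgeR adjusted p = 0.133), beside 3897 of all 18763 genes. ACTA2 passed without ΔTFR5 replicate 3, in a fit that called 2.05% of all genes. ΔTFR5 against ΔTFR4 also called none, where 0.453% of all genes were called (0.357% higher, 0.0959% lower). ACTA2 alone had an unadjusted p under 0.05 there, beside 1820 of all 18763 genes. It was lower with ΔTFR5 by -0.66 ± 0.20 (edgeR adjusted p = 0.301) with groups that did not overlap. DESeq2 also called no member in either comparison. Its difference between the deletions exceeded its standard error but did not pass the adjustment over all genes. The plot of fold changes against empty vector sets the 3 constructs side by side.

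**Figure D3:**
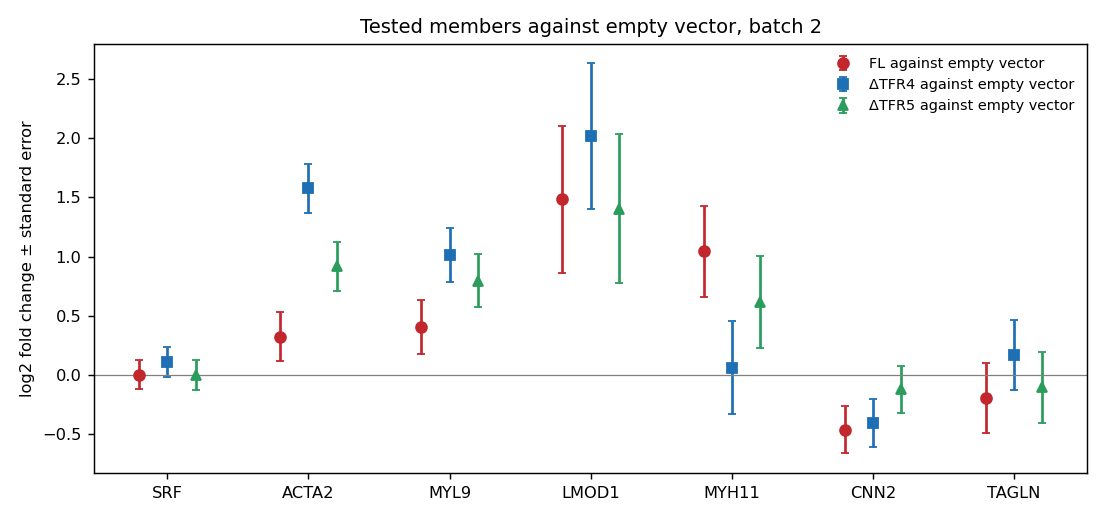
Log2 fold change against empty vector of the 7 tested members other than MYOCD in batch 2, with its standard error from the edgeR fit, for FL (red circles), ΔTFR4 (blue squares) and ΔTFR5 (green triangles); the 3 share the empty vector libraries. ACTA2 and MYL9 lie highest for ΔTFR4 at 1.58 and 1.02, and MYH11 is highest for FL at 1.05.

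Several members share exonic bases with a gene on the opposite strand, and the strand setting is unknown, so their reads may be mixed. For ACTA2 these are ACTA2-AS1 (17.3% of its exonic bases) and FAS (12.8%), for LMOD1 AL513217.1 (13.5%), for TAGLN PCSK7 (11.4%), for CNN2 AC011558.1 (9.3%) and for MYH11 NDE1 (4.8%). MYL9, SRF, CNN1 and ACTG2 share none. The estimates of ACTA2, TAGLN and MYH11 hold fractions of a count. Over all genes the correlation (Spearman) of log2 fold change with GC content was 0.00 for ΔTFR4 and -0.02 for ΔTFR5 against empty vector, and -0.30 for FL. With the GC trend of each library removed, ACTA2 stood at 1.58 (edgeR adjusted p = 0.000343) and MYL9 at 1.01 (edgeR adjusted p = 0.00146) in ΔTFR4 against empty vector.

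Markers of other cells were read beside these genes. Of the 7 smooth muscle markers, 6 are members, and DES, the other, read 0 in batch 1 and 0 to 0.601 CPM in batch 2. Of the 8 fibroblast and pericyte markers, 4 averaged at least 1 CPM. The sum of the 8, most of it CSPG4 (mean 321 CPM), was 392 to 416 CPM with empty vector. It was 198 to 395 with FL and 295 to 371 with ΔTFR4. None of the 8 passed in ΔTFR4 against empty vector, in either direction. The endothelial sum was higher with SLNCR. It was 5.25 to 5.35 CPM with empty vector, 8.29 to 12.6 with FL, 15.3 to 18.8 with ΔTFR4 and 17.7 to 23.1 with ΔTFR5. Of its 6 markers TIE1 alone averaged at least 1 CPM, with CDH5 at 0.0731 and PECAM1 at 0.847. In ΔTFR4 against empty vector TIE1 rose by 2.42 ± 0.21 (edgeR adjusted p = 3.57e-05). KDR, at -1.27 ± 0.51 (edgeR adjusted p = 0.0864), PECAM1 and VWF did not pass. Of 7 cardiomyocyte markers RYR2 alone averaged at least 1 CPM, and MYL7 averaged 0.00899 CPM in batch 1 and read 0 in batch 2. The leukocyte markers summed to at most 4.05 CPM in any library. That library was in FL of batch 2, where the sums ran from 0.185 CPM, and the other groups of that batch reached at most 0.303. In ΔTFR4 against empty vector 12.5% of all genes were called higher and 11.4% lower. Of 6 tested epithelial markers 2 fell there, KRT19 by 4.93 ± 1.02 (edgeR adjusted p = 0.00517) and CDH1 by 2.07 ± 0.67 (edgeR adjusted p = 0.0388). Of 12 tested melanoma and neural crest markers 4 fell (S100A1, S100B, SOX10 and PRAME) and 1, AXL, rose by 0.55 ± 0.13 (edgeR adjusted p = 0.0106). The part of these markers in the results on ACTA2 and MYL9 was not tested. In bulk RNA a change in the number of cells of a type and a change in RNA per cell cannot be told apart.

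In FL against empty vector of batch 2 no gene of the wider SRF lists passed by edgeR, among 14 tested SRF cofactors and regulators, 19 other smooth muscle genes, 15 cytoskeletal targets of the MRTF and SRF pair, 6 cardiac and skeletal muscle genes and 10 immediate early targets of the ternary complex factors. Their median log2 fold changes were 0.29, -0.07, 0.06, 0.31 and 0.75, against 0.02 over all genes. At an unadjusted p under 0.05, 6 cofactors were higher and 1 lower, 1 smooth muscle gene was higher and 2 lower, 1 cytoskeletal target was lower, and 1 cardiac gene and 5 immediate early genes were higher. Of all 18763 genes 4933 had such a p, in either direction. DESeq2 called 11.0% of all genes in this comparison. Of the listed genes it called 7 higher and 1 lower, among them the immediate early genes EGR1, MCL1 and ZFP36. The genes it called also include RYR2 of the cardiac list and SYNPO2 of the smooth muscle list, both higher.

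The same lists were read in ΔTFR4 against empty vector, where 12.5% of all genes were called higher and 11.4% lower. Of the 10 immediate early genes 7 rose and none fell, at a list median of 1.02. EGR1, a growth-responsive transcription factor, rose by 4.98 ± 1.12 (edgeR adjusted p = 0.0121) and JUNB, an AP-1 subunit, by 1.28 ± 0.32 (edgeR adjusted p = 0.0136). MCL1, a survival factor of the BCL2 family, rose by 0.75 ± 0.19 (edgeR adjusted p = 0.0148). With a library left out the count ran from 1 (without empty vector replicate 2) to 7. The fits without empty vector replicate 1 gave 2, those without empty vector replicate 3 or ΔTFR4 replicate 2 gave 3, and that without ΔTFR4 replicate 3 gave 4.

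Of the 19 other smooth muscle genes in that comparison none rose and 5 fell, among them SMTN, VCL, SYNM and CNN3, beside 23.9% of all genes called in either direction. SMTN, smoothelin of contractile smooth muscle, fell by 0.62 ± 0.14 on the log2 scale (edgeR adjusted p = 0.00716). VCL, vinculin, fell by 0.59 ± 0.14 (edgeR adjusted p = 0.0104). With a library left out the count that fell ran from 2 to 5.

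Of 15 cytoskeletal targets 2 rose and 2 fell, a share near the 23.9% of all genes called. ACTB, the beta actin of most cells and itself an SRF target, fell by 0.87 ± 0.12 (edgeR adjusted p = 0.000932) in the libraries where the smooth muscle actin ACTA2 rose. TPM3, a tropomyosin, fell by 0.86 ± 0.12 (edgeR adjusted p = 0.000908). TGFB1I1, a focal adhesion protein, rose by 0.63 ± 0.12 (edgeR adjusted p = 0.00289). MYL12A, a nonmuscle relative of MYL9, rose by 0.65 ± 0.22 (edgeR adjusted p = 0.0456). With a library left out, 1 cytoskeletal target in place of 2 rose in every fit, and 2 fell. Of 6 tested cardiac and skeletal genes RYR2, the calcium release channel, rose by 1.21 ± 0.17 (edgeR adjusted p = 0.000898) and the others did not pass. Among 14 cofactors FHL2, a LIM protein that binds SRF, rose by 0.76 ± 0.16 (edgeR adjusted p = 0.00588) and CSRP2, a LIM protein of smooth muscle, fell by 0.95 ± 0.19 (edgeR adjusted p = 0.00429).

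In ΔTFR5 against empty vector 10.2% of all genes were called. None of the 10 immediate early genes passed by edgeR, at a median of 0.41. At an unadjusted p under 0.05, 2 were higher, beside 4950 of all 18763 genes in either direction. DESeq2 called 1, EGR1, where it called 15.7% of all genes. SMTN fell by 0.73 ± 0.14 (edgeR adjusted p = 0.00791). ACTB fell by 0.70 ± 0.12 (edgeR adjusted p = 0.00554), TPM3 also fell, and TGFB1I1 rose by 0.77 ± 0.12 (edgeR adjusted p = 0.00263). RYR2 rose by 1.02 ± 0.17 (edgeR adjusted p = 0.00421). A rise of ACTA2 beside a fall of ACTB and SMTN was seen with both deletions, which share their empty vector libraries. In ΔTFR4 against FL, which does not use them, ACTB fell by 0.59 ± 0.12 (edgeR adjusted p = 0.0229) beside the rise of ACTA2. SMTN did not pass there, at -0.20 ± 0.14 (edgeR adjusted p = 0.411). In ΔTFR5 against FL neither ACTA2 (edgeR adjusted p = 0.133), ACTB (0.0893) nor SMTN (0.229) passed. With FL against empty vector SMTN was also lower, at -0.42 ± 0.14, and did not pass (edgeR adjusted p = 0.0954).

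Batch 1 gave another picture, in a table where 7 members were tested and MYOCD, LMOD1 and ACTG2 were below the filter. ACTG2 had 1 count in all 12 libraries together. In FL against empty vector 3 of the 7 fell and none rose, where 22.7% of all genes were called with 11.4% higher and 11.3% lower. All 7 log2 fold changes were negative, from -0.80 to -0.14. SRF read 67.02, 67.30 and 62.08 CPM with empty vector, 57.58, 59.12 and 50.14 with FL, 66.83, 62.27 and 64.39 with ΔTFR1, and 61.64, 66.19 and 62.76 with ΔTFR2. Its FL libraries were below every other library.

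SRF fell by 0.23 ± 0.07 on the log2 scale (edgeR adjusted p = 0.014). CNN2 fell by 0.32 ± 0.07 (edgeR adjusted p = 0.00193), from 79.53, 72.56 and 75.52 CPM to 62.76, 63.97 and 55.54, and lay at 65.31 to 82.26 with the deletions. TAGLN fell by 0.31 ± 0.11 (edgeR adjusted p = 0.031), from 23.76, 23.19 and 22.72 CPM to 18.02, 19.89 and 18.22, and lay at 21.12 to 28.59 with the deletions. For both genes no FL library overlapped another group. The share of all genes that separate in this way is not given here, and the FL libraries share a GC trend described below. CNN2 kept its call with each library left out, SRF in 3 of 6 such fits and TAGLN in 1.

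ACTA2 in batch 1 read 11.83, 11.49 and 12.05 CPM with empty vector, 11.55, 9.15 and 8.20 with FL, 9.53, 10.25 and 12.60 with ΔTFR1, and 12, 11.74 and 12.25 with ΔTFR2. FL overlapped empty vector, and the log2 fold change of -0.28 ± 0.14 did not pass (edgeR adjusted p = 0.128). MYH11 at -0.14 ± 0.14, MYL9 at -0.25 ± 0.31 and CNN1 at -0.80 ± 0.43 did not pass either. CNN1 held 38 counts over the 3 empty vector libraries and 23 over the 3 with FL, and MYL9 57 and 51, so the test on them was shallow.

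**Figure D4:**
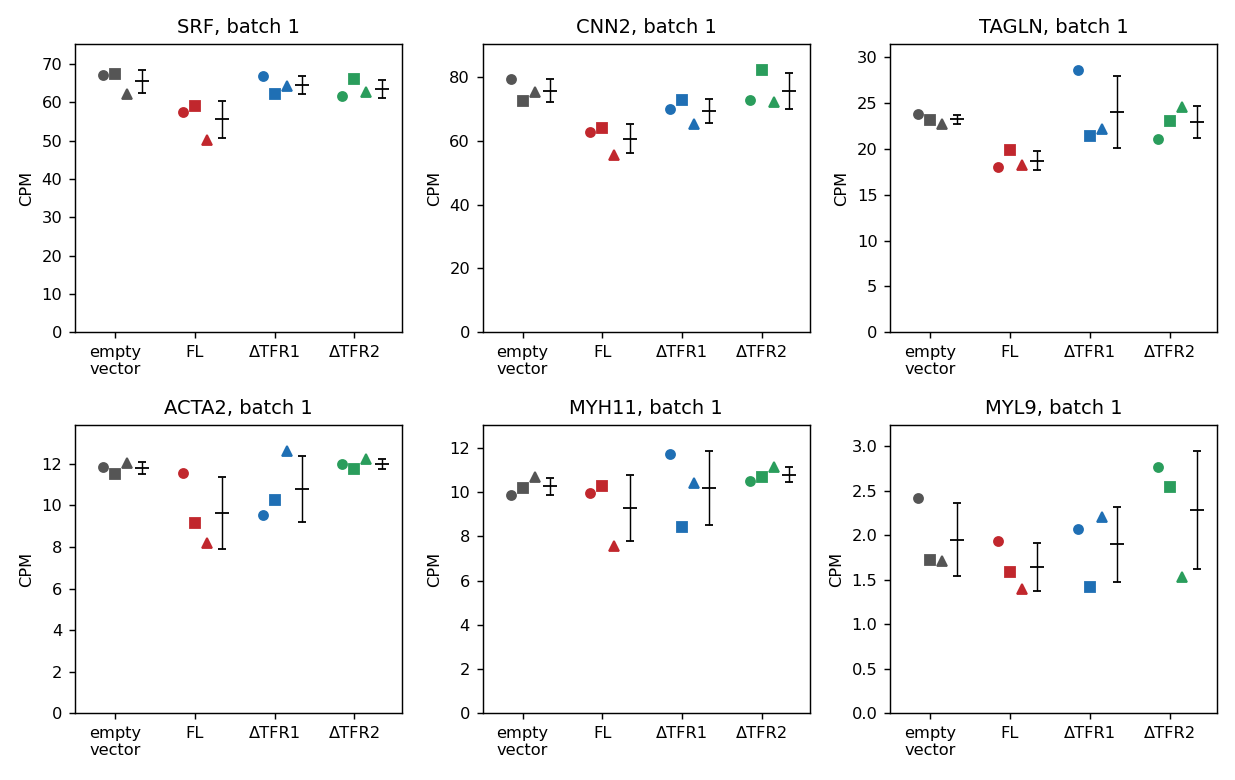
Level of 6 members in each batch 1 library, in CPM on a linear axis, by group; points are libraries (shape as replicate number), and the bar beside them is the mean ± SD of 3. For SRF, CNN2 and TAGLN the 3 FL libraries lie below those of the other groups, and ACTA2, MYH11 and MYL9 overlap.

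Against FL, ΔTFR1 called 2 of the 7 higher, where 10.1% of all genes were called (4.4% higher, 5.66% lower). SRF rose by 0.21 ± 0.07 (edgeR adjusted p = 0.0459) and TAGLN by 0.36 ± 0.11 (edgeR adjusted p = 0.0301). SRF kept that call in 1 of 6 fits with a library left out (without FL replicate 2) and TAGLN in 3, and neither passed without FL replicate 1, FL replicate 3 or ΔTFR1 replicate 1. ΔTFR2 called 1 of the 7, where 10% of all genes were called (4.86% higher, 5.15% lower): CNN2 rose by 0.32 ± 0.07 (edgeR adjusted p = 0.00958). It missed the threshold without FL replicate 3 (adjusted p = 0.0513) or ΔTFR2 replicate 2 (adjusted p = 0.0996). These comparisons use the FL libraries that gave the lower values above.

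The deletions of batch 1 did not separate from empty vector or from each other. ΔTFR1 against empty vector called none of the 7, where 0.00699% of all genes were called, with log2 fold changes of -0.22 to 0.05. ΔTFR2 against empty vector called none, where 0.014% were called, with -0.04 to 0.21. ΔTFR2 against ΔTFR1 called none, where 0% of all genes were called, with -0.07 to 0.30. In all 3, by edgeR, no member had an unadjusted p under 0.05, and DESeq2 called no member. Of all 14310 genes 551 to 597 had such a p.

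The batch 1 calls moved with GC content. Over all genes the Spearman correlation of log2 fold change with GC content was -0.68 for FL against empty vector, 0.62 for ΔTFR1 against FL and 0.61 for ΔTFR2 against FL. All 7 tested members lay above the median GC content of tested genes, 48.0%, with SRF at 60.9%, MYL9 at 60.5% and CNN1 at 59.0%. With the GC trend of each library removed none of the 7 was called in these 3 comparisons, where 329 of all genes still were in FL against empty vector, in place of 3247. SRF then stood at -0.01 ± 0.06 (edgeR adjusted p = 0.942), CNN2 at -0.17 ± 0.06 (0.118) and TAGLN at -0.15 ± 0.10 (0.48) in FL against empty vector. Whether GC content or the construct moved these genes cannot be told apart in 3 FL libraries that all share the trend.

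**Figure D5:**
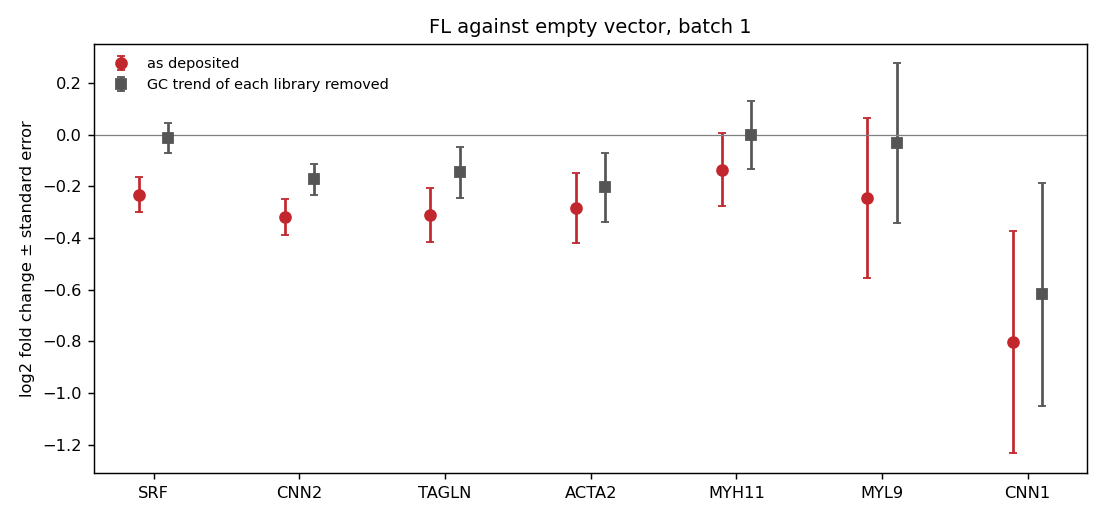
Log2 fold change of FL against empty vector in batch 1 for the 7 tested members, with its standard error from the edgeR fit, on counts as deposited (red circles) and with the GC trend of each library removed (grey squares). SRF moves from -0.23 to -0.01, CNN2 from -0.32 to -0.17 and TAGLN from -0.31 to -0.15.

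The genes closest to SRF differed between the batches. In batch 1 they were TTLL12 and WDR1 (both at a correlation of 0.983), INTS1 (0.98), AHDC1 and LTBP3 (both 0.979), and in batch 2 TMEM127 (0.956), PYGO2 (0.944), SNORA4 (0.935), SCARNA1 (0.933) and SNORA67 (0.932), each over 12 libraries that share group and GC trend. WDR1 is a cofactor of actin disassembly. No member was among them in either batch.

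The wider SRF gene lists of batch 1 were read in the same way. Among 13 tested cofactors and regulators 4 rose and 1 fell in FL against empty vector, where 22.7% of all genes were called (11.4% higher, 11.3% lower). The one that fell was MKL1, the older symbol of MRTFA, by 0.33 ± 0.09 (edgeR adjusted p = 0.00865), and ELK4 rose by 0.22 ± 0.05 (edgeR adjusted p = 0.00493). MKL1 rose against FL by 0.34 ± 0.09 with ΔTFR1 (edgeR adjusted p = 0.0208) and by 0.33 ± 0.09 with ΔTFR2 (edgeR adjusted p = 0.0208). With the GC trend removed MKL1 and RHOA were the cofactors still called in FL against empty vector, and none was called against FL.

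In the same comparison, with its 22.7% of all genes called, 3 of 17 other smooth muscle genes rose and 4 fell, with FLNA, filamin A, lower by -0.19 ± 0.04 (edgeR adjusted p = 0.00137) and CALD1, caldesmon, higher by 0.30 ± 0.06 (edgeR adjusted p = 0.00162). Of 15 cytoskeletal targets 3 rose and 4 fell, with MYH9, nonmuscle myosin, lower by -0.25 ± 0.05 (edgeR adjusted p = 0.00108). Of 8 immediate early genes none rose and IER2 and FOSB fell. With the GC trend removed none of the smooth muscle or immediate early genes and 1 of the cytoskeletal targets, TPM3, was called. None of 4 tested cardiac and skeletal genes passed in either fit.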

How the data were processed

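RNA was sequenced in 24 A375 libraries, 8 groups of 3. The batch 1 table holds whole-number gene counts and the batch 2 table salmon estimated counts, both as the authors deposited them. Of the batch 2 values 83.66% are whole within 0.01, and the rest were rounded. Tools named in the submitters' processing notes are STAR 2.7.3a, cutadapt 2.5, FastQC 0.11.5, Subread 1.6.2 (featureCounts) and DESeq2 1.24.0, and the builds GRCh38 and GRCm38. For salmon's version, the annotation and strandedness, the sources used here give nothing. The batches were counted in different ways, so each was fitted apart and no level was tested between them.

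The test was edgeR's quasi-likelihood test (edgeR 4.0.16, R 4.3.3), in 1 model over the 12 libraries of a batch after filterByExpr (minimum count 10, minimum total 15) and TMM scaling. P-values were adjusted by Benjamini-Hochberg over all 14310 (batch 1) or 18763 (batch 2) genes tested, and genes were called at an adjusted p under 0.05. Standard errors were taken as the size of each fold change (log2, prior count 2) divided by the square root of F. The scripts were tested on simulated data. Alternatives were DESeq2 1.42.0, no filter, RLE size factors, the 2 compared groups alone, the replicate number as a block, removal of each library's GC trend (a spline of 5 degrees of freedom) and each library left out. Replicates differed by more than sampling noise in every pair (chi-square per gene 1.48 or more).

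The members and gene lists were chosen with earlier results of these data known, so list counts are descriptions. Overlap of groups was read for the members alone, so no share of all genes stands beside it. Named genes are the members, the 5 genes most correlated with MYOCD (batch 2) or SRF (each batch), genes counted in FL of batch 2 alone, neighbours of MYOCD, and called genes of each list, up to 4 by adjusted p. CNN3, SYNPO2 and the cell type markers were picked after their values were seen. 1 gene of the smooth muscle list is counted there but not reported here by name. Promoter sequences come from RefSeq (GRCh38.p14) and gene intervals from GENCODE 29.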

Additional observations from a re-analysis of the deposited data

How the results depend on the processing

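Of the member counts under alternatives, 114 stayed within 1.5 times the reported count and 30 did not. With the GC trend removed none of the 7 members was called (0) in FL against empty vector, ΔTFR1 against FL and ΔTFR2 against FL of batch 1. In ΔTFR1 against FL, DESeq2, no filter and RLE size factors each gave 1 in place of 2, and only the 2 groups compared gave 0. The replicate numbers did not pair the libraries (correlations of same-numbered deviations from -0.14 to 0.20, never all 3 over 0.1). The replicate block moved the count from 1 to 2 in ΔTFR2 against FL and from 2 to 1 in ΔTFR5 against empty vector. With 1 library left out, counts ran from 1 to 3 in FL against empty vector, 0 to 3 in ΔTFR1 against FL and 0 to 3 in ΔTFR2 against FL of batch 1. In batch 2 they ran from 0 to 1 in FL against empty vector, 0 to 2 in ΔTFR4 against FL, 0 to 1 in ΔTFR5 against FL, 2 to 3 in ΔTFR4 against empty vector and 0 to 2 in ΔTFR5 against empty vector. The near-zero SRF difference of FL against empty vector in batch 2 turned negative with DESeq2 (-0.011), no filter (-0.003), RLE (-0.011) and without empty vector replicates 1 (-0.014) and 2 (-0.035) or FL replicates 2 (-0.065) and 3 (-0.017). That of TAGLN turned positive with the GC trend removed (0.003), without empty vector replicate 2 (0.029) and without FL replicate 2 (0.019). With a library left out, SRF there ran from -0.065 to 0.076 and TAGLN from -0.4 to 0.029. The cause was not tested. Of the member fold changes under alternatives, 190 kept their side of the threshold, 47 lost a call, 2 gained one and 10 turned sign. Counts over all genes moved more. FL against empty vector of batch 2 gave 217 calls, against 2057 with DESeq2, 907 with no filter, 679 with the GC trend removed, 399 with the block, 2 with only the 2 groups and 6 to 5966 with a library left out. ΔTFR4 against FL gave 819, against 1929 with DESeq2, 1398 with the GC trend removed, 33 with the 2 groups alone and 79 to 2220 with a library left out. ΔTFR5 against FL gave 259, against 1457, 759, 1 and 19 to 3480 in the same order, 486 with no filter and 170 with the block. ΔTFR4 against empty vector gave 4489, against 9081 with the 2 groups alone and 2309 to 2914 with a library left out. ΔTFR5 against empty vector gave 1907, against 2952 with DESeq2, 3306 with the GC trend removed, 5635 with the 2 groups alone and 440 to 1746 with a library left out. ΔTFR5 against ΔTFR4 gave 85, against 239 with DESeq2, 141 with no filter, 1106 with the 2 groups alone and 39 to 62 with a library left out. In batch 1, FL against empty vector gave 3247, against 329 with the GC trend removed, 2108 with the 2 groups alone and 1182 to 4064 with a library left out. ΔTFR1 against FL gave 1440, against 36, 304 and 22 to 2752 in that order, and 2231 with the block. ΔTFR2 against FL gave 1432, against 19, 724 and 0 to 2710, and 2178 with the block.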
